A study of Arabidopsis thaliana with 10 samples.

Results

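Acetylation of lysine 27 of histone H3 (H3K27ac) was examined at 1379 regions of the Arabidopsis genome that carried a peak in the inflorescence meristem and again at 8 days after floral induction, but none at 2 days. These gap regions were chosen by the presence of peaks alone. The peak lists of the 4 stages were pooled, peaks overlapping by at least 1 bp were joined into 12579 regions, and a region was taken if it held an S0 peak and an S8 peak and no S2 peak, whether or not it held an S4 peak. They made up 10.96% of all regions and 16.6% of the 8301 regions with both an S0 and an S8 peak (95% Wilson interval 15.8 to 17.4%). The other 6922 regions with S0 and S8 peaks held an S2 peak and are called kept regions. The number depends on how deep each list reaches: with every list cut to the length of the shortest it was 780, and with the full S2 list but only the upper 50% of the S0 and S8 lists it was 143. The absence of an S2 peak and the presence of S0 and S8 peaks are the definition and not a result.

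The tissue came from the pAP1::AP1-GR ap1 cal line in the Ler background, in which the APETALA1 promoter drives APETALA1 (AP1) fused to the glucocorticoid receptor, so that dexamethasone starts flower formation in many meristems at once. S2, S4 and S8 were taken 2, 4 and 8 days after the first of the daily treatments, at floral stages 2, 4 to 5 and 7 to 8, and S0 is the inflorescence meristem before induction. All groups, S0 included, carry the transgene and lack functional endogenous AP1 and CAULIFLOWER, and the time after induction cannot be told apart from the exposure to dexamethasone. Each stage had 2 ChIP libraries, and peaks were called against 2 combined inputs and kept where the replicates agreed by their irreproducible discovery rate, so there is 1 list per stage, no value per replicate and no test across samples. Each peak has the authors' fold enrichment over input at its summit and a −log10 p. These were ranked within their own list as a percentile, with 100 for the strongest peak. The S2 list is the shortest, with 8608 peaks, against 11583 at S0, 9114 at S4 and 9235 at S8, and the depth of the libraries is unknown. No peak in any list had a −log10 q under 10, so a peak absent from a list may lie below that limit, and in whole tissue fewer cells with the mark and less mark per cell cannot be told apart.

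H3K27ac is laid down by histone acetyltransferases, those of the p300/CBP type among them, and removed by histone deacetylases, and it neutralizes the charge of the histone tail. In Arabidopsis it lies mostly on the first nucleosomes of transcribed genes, just downstream of the transcription start site (TSS). In the young flower the inflorescence programme is switched off and organ identity genes are switched on, and the SQUAMOSA PROMOTER BINDING PROTEIN-LIKE (SPL) transcription factors, several of which are restrained by the microRNA miR156, act upstream of AP1 in this switch.

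The sequences at the summits of the S0 peaks show what kind of DNA the gap regions hold. They are given from the RefSeq copy of TAIR10.1, the reference accession and not Ler, from 100 bp before to 100 bp after the summit, on the strand of the gene, with coding bases in capitals and intron bases in lower case. BZIP28 (chr3:3379488-3379688, plus strand) is the strongest gap region of a gene body, outside repeated sequence, that also had an S4 peak, and AT1G72950 (chr1:27444659-27444859, plus strand) is the strongest such region with S0 and S8 peaks only. HAI1 (chr5:23896098-23896298, minus strand) belongs to the same set. SPL9 (chr2:17587642-17587842, plus strand) and SPL5 (chr3:5140870-5141070, minus strand) stand for the SPL genes, and the SPL5 window crosses from exon 1 into the intron. GI (chr1:8061986-8062186, plus strand) and EIN3 (chr3:7262771-7262971, minus strand) lie in first introns and show the AT-rich summits that were commoner among gap regions. SPL13A (chr5:20583569-20583769, minus strand) and AT1G33120 (chr1:12011047-12011247, plus strand) have 2 exact copies each in the genome and stand for the repeated gap regions. GATA1 (chr3:8686995-8687195, plus strand) is among the strongest kept regions and is given for comparison.
BZIP28: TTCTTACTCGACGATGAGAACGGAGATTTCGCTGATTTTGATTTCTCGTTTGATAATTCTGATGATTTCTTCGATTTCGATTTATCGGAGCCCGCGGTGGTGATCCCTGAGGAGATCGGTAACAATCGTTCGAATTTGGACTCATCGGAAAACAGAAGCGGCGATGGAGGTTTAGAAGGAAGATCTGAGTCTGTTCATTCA
AT1G72950: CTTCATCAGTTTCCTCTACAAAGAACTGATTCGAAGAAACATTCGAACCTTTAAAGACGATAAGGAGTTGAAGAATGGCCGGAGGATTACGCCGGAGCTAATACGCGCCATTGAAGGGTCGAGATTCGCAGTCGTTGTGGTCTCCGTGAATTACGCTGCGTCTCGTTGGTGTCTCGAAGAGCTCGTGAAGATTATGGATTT
HAI1: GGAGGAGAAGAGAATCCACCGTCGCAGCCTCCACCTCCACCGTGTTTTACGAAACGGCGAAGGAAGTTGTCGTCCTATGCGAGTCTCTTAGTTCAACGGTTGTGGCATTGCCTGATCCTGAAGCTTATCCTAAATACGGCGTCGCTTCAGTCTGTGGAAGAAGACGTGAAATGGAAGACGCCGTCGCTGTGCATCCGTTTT
SPL9: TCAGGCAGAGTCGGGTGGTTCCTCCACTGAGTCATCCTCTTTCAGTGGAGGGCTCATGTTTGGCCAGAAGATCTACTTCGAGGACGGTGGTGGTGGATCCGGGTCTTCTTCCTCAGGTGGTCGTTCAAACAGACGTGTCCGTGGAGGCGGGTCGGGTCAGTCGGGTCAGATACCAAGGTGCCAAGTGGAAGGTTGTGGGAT
SPL5: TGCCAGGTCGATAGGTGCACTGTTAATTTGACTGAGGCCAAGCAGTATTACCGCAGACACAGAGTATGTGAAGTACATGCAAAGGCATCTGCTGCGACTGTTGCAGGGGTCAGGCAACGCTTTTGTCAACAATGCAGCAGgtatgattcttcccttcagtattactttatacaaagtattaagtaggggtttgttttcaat
GI: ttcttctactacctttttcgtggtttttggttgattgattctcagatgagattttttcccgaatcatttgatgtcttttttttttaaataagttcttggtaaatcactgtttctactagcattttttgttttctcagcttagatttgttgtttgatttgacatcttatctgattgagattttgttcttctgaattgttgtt
EIN3: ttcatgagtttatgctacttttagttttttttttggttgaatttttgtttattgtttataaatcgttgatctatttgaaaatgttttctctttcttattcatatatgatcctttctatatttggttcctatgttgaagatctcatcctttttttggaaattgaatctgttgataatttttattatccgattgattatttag
SPL13A: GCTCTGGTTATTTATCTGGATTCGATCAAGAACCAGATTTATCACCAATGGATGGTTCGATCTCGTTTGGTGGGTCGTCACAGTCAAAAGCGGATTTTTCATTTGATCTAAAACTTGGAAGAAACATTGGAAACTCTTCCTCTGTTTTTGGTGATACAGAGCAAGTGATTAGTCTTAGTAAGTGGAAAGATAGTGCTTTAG
AT1G33120: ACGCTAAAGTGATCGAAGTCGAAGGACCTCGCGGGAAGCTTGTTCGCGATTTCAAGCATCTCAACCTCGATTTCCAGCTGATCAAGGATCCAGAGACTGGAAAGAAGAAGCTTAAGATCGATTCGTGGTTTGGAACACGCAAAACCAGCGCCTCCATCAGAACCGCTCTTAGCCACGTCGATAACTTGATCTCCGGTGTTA
GATA1: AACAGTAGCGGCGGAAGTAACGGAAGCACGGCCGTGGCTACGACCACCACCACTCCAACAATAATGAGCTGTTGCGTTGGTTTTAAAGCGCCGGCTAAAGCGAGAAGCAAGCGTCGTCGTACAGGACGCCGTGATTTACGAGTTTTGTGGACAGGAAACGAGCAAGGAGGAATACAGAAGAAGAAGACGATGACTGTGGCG

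The GC content of these windows was 29.4% for GI and 23.9% for EIN3, both in introns, and that of EIN3 was the lowest of all gap summits. The coding summits of BZIP28 (43.8%), HAI1 (52.2%) and SPL9 (57.2%) spanned a wide range. The kept region of GATA1, also on a coding exon, had 52.7%. No kept intron window is shown, and over all intron summits the medians were 35.8% in gap and 36.8% in kept regions.

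Most gap regions had a peak again at S4. An S4 peak was present in 850 of 1379 gap regions (61.6%, 59.0 to 64.2%), against 6386 of 6922 kept regions (92.3%, 91.6 to 92.9%), a difference of −30.6 points (95% Newcombe interval −33.3 to −28.0 over regions). The rule did not use S4. The intervals here and in what follows cover counting error only, since regions are not replicates of a stage. The other 529 gap regions lacked both the S2 and the S4 peak. The mirror pattern, S0 and S8 peaks without an S4 peak, was found in 1065 of the 8301 regions (12.8%), of which 536 had an S2 peak.

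The gap regions carried weak peaks at the stages where they had one. This is a description, since the strength of a peak bears on whether it is called. The median S0 peak stood at the 35.2 percentile of its list in gap regions (quartiles 18.2 and 55.1) and at the 66.6 percentile in kept regions (44.1 and 84.2). At S4 the medians were 31.1 for the gap regions with a peak there and 62.4 for the kept regions, and at S8 they were 25.4 and 59.8. The authors' fold enrichment had a median of 2.93 in gap and 3.67 in kept regions at S0, of 2.64 and 3.11 at S4, and of 2.59 and 3.10 at S8. Gap regions without an S4 peak ranked lower than those with one, at the 26.5 against the 42.5 percentile at S0. Peaks of gap regions were also narrower, with a median width at S0 of 664 bp against 855 bp in kept regions.

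**Figure D1:**
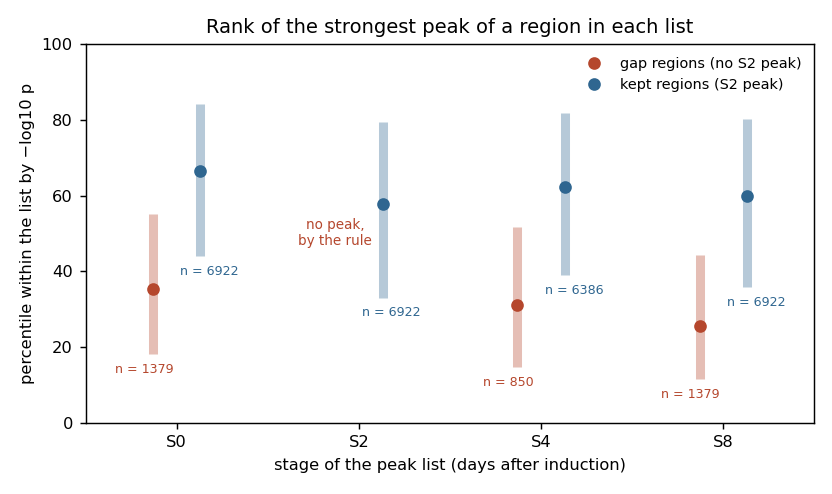
Percentile of the strongest peak of each region within its own list, by −log10 p, at S0, S2, S4 and S8 (days after induction). Points are medians over regions and bars run from the first to the third quartile; gap regions sit at medians of 35.2, 31.1 and 25.4, below the kept regions at each stage, and have no S2 peak by the rule.

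Regions of lower rank lacked the S2 peak more often. When the 8301 regions were ordered by the lower of their S0 and S8 percentiles and cut into 10 classes of equal size, from weakest to strongest, 43.4% of class 1 lacked the S2 peak, 29.3% of class 3, 12.8% of class 5, 5.42% of class 7 and 1.45% of class 9. The S4 peak was lacking in 39.0% of class 1 and 10.1% of class 5. Class 10, the strongest, departed from this course at S2, where 24 of 830 regions (2.89%) lacked the peak, while 0 of 830 lacked it at S4, which allows a share of up to 0.361%. All 24 lie on repeated sequence, defined as a window of 100 bp on each side of the S0 summit in which at least 50% of the 32-mers occur more than once in the genome. Among the 786 regions of class 10 not on repeated sequence none lacked the S2 peak, which allows a share of up to 0.382%. The lower S4 share of gap regions held within each of 4 classes of this rank of equal size, with differences of −27.9, −18.8, −10.8 and −3.93 points from the weakest to the strongest, so that its size moved with the rank.

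**Figure D2:**
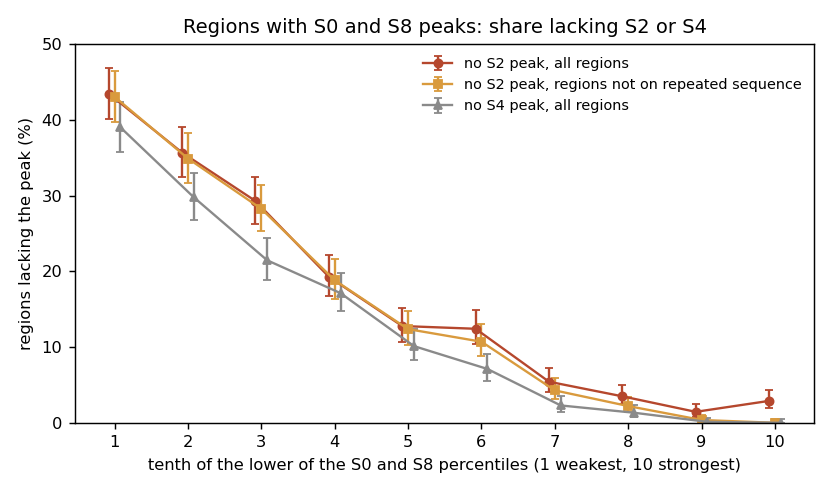
Share of regions with S0 and S8 peaks that lack an S2 peak (all regions, and regions not on repeated sequence) or an S4 peak, in percent, by 10 classes of the lower of the S0 and S8 percentiles, weakest on the left. Error bars are 95% Wilson intervals over regions; the share without S2 is 1.45% in class 9 and 2.89% in class 10, where it is 0 once repeated sequence is left out.

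Only part of the gaps had an S2 peak close by. The median distance from a gap region to the nearest S2 peak was 4012 bp. An S2 peak lay within 500 bp of 7.11% of gap regions, within 1 kb of 13.2% (11.5 to 15.1%) and within 2 kb of 26.6%. The gene with the TSS nearest to the summit had an S2 peak elsewhere in 84 cases (6.09%, 4.95 to 7.48%). These cases came from 59 genes, and regions given to the same gene are not independent. Among the genes are AT4G06688 and AT4G06744, nearest to distal gap regions on chromosome 4 with a TSS as far as 57858 and 60683 bp away. The 1379 regions were given to 1347 genes, of which 9 had more than 1 gap region and 47 also had a kept region.

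At the edge of the rule, the gap regions outside repeated sequence nearest to an S2 peak were WTF1 at 39 bp, TRM19 at 86 bp and SIGF, a plastid sigma factor, at 89 bp, measured edge to edge. The kept regions that came closest to being gaps were AT2G43640, AT1G31910 and AT1G65030. The S2 peak of AT2G43640 touched the S4 peak of its region only and ended 49 bp from the S0 or S8 peak, and the S2 peaks of AT1G31910 and AT1G65030 overlapped an S0 or S8 peak by 171 bp each. In all, 1 gap region lay within 50 bp of an S2 peak, and every kept region other than AT2G43640 had an S2 peak that overlapped an S0 or S8 peak by more than 50 bp.

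Repeated sequence was commoner among gap regions than among kept ones, and scarce in the S2 list as a whole. It was found at the S0 summit of 108 of 1379 gap regions (7.83%, 6.53 to 9.37%) and of 35 of 6922 kept regions (0.506%, 0.364 to 0.702%), a difference of 7.33 points (6.01 to 8.87). Read the other way, 108 of the 143 repeated regions with S0 and S8 peaks lacked the S2 peak (75.5%, 67.9 to 81.8%), against 15.6% of the regions not on repeated sequence. The same did not hold at S4, where the peak was lacking in 13.3% of the repeated regions (8.67 to 19.8%) and in 12.8% of the others. Gap regions with an S4 peak lay on repeated sequence in 10.7%, and their mirror, regions lacking S4 alone, in 0.373%, a difference of 10.3 points (8.19 to 12.6). Repeats were not particular to gap regions. Of the 1630 regions with an S0 peak alone, which also lack S2, 93 were repeated at the summit (5.71%), and repeated summits made up 0.546% of all peaks of the S2 list, against 2.13% at S0, 1.77% at S4 and 1.85% at S8. At the S8 summit, 93 of the 850 regions lacking S2 alone were repeated, while none of the 194 lacking S0 alone was, which allows a share of up to 1.55%. The aligner kept reads with up to 10 places at 1 of them, and the reads came from Ler but were placed on the reference accession. The part of these steps in the S2 list was not tested.

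The repeated gap regions were of several kinds. Of the 108, 70 had their S0 summit in a protein-coding gene, 4 in a promoter and 34 in distal intergenic sequence, and 91 had an S4 peak. None matched the mitochondrial or chloroplast sequence. The longest run of neighbouring gap regions, with no other region with S0 and S8 peaks between them, held 20 regions at chr4:3965477-4010725, of which 19 were repeated and all 20 were distal and had an S4 peak. A run of 5 at chr5:11701730-11724859 was likewise repeated and distal throughout. Within that run lay the region at chr5:11706379-11708644, with AT5G30520 as its nearest gene. By −log10 p it stood at the 99.9 percentile at S0, the 98.6 at S4 and the 97.9 at S8. Its fold enrichment was 6.05, 3.08 and 2.97 at these stages, against medians of 3.21, 2.90 and 2.92 over the peaks of each list. It was thus among the strongest by −log10 p at every stage but S2, while at S4 and S8 its fold enrichment lay near the median.

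Several of the repeated summits in gene bodies belonged to pairs of near-identical genes. AT1G33120 and PGY2, annotated as ribosomal proteins of the L6 family and close to each other on chromosome 1, were both gap regions. AT1G33120 stood at the 97.8, 98.3 and 97.3 percentiles at S0, S4 and S8, and PGY2 at the 96.4, 97.4 and 98.0 percentiles. The neighbouring transporters AT1G18010 and AT1G18000, of the major facilitator superfamily, stood at 98.2 and 98.1 at S0, at 94.5 and 94.3 at S4, and at 97.5 and 97.4 at S8. In both pairs a strong peak was called at each copy at the 3 other stages. At the summit of each copy 100% of the window was repeated. Reads with up to 10 places were kept at 1 of them, so these peaks cannot tell which copy carried the mark. Whether both copies carried it was not tested. SDH3-1 and SDH3-2, which encode a membrane subunit of mitochondrial succinate dehydrogenase, were both gap regions although they lie on chromosomes 5 and 4. On chromosome 5 a run of 6 gap regions at chr5:20576684-20619455 spans 2 copies of a block with 3 genes each, a WD40 repeat gene (AT5G50550 and AT5G50650), SPL13A or SPL13B, and a subunit of the SUMO-activating enzyme (AT5G50580 and AT5G50680).

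Both gap and kept regions sat mostly in gene bodies. The S0 summit lay in a gene body in 94.8% of gap regions (93.5 to 95.8%) and 97.5% of kept regions (97.1 to 97.9%), a difference of −2.75 points (−4.10 to −1.63), and the difference was −0.366 points, with an interval that includes 0, once repeated sequence was left out. With repeated sequence left in, the difference was −4.62 points with every list cut to the length of the shortest. It was −20.2 points (76.9% against 97.1%) with the full S2 list and the upper 50% of the S0 and S8 lists. In the strongest of the 4 classes of rank, 40 of the 49 gap regions were repeated. There 51.0% of gap and 96.9% of kept regions had the summit in a gene body. The part of repeated sequence in the values from shorter lists was not tested. Over all gap and kept regions, promoters, taken as 1 kb upstream of the TSS, held 1.23% and 0.939%, and distal sequence 3.99% and 1.53%. Of the 55 distal gap regions, 37 had no annotated gene of any kind at the summit (67.3%), against 42 of the 106 distal kept regions (39.6%). The median distance of intragenic summits from the TSS was 388 bp in gap regions (378 to 396) and 404 bp in kept regions (399 to 409). Within the 4 classes of rank, from weakest to strongest, it was 386.5, 383, 409 and 384 bp in gap regions. In kept regions it was 381, 382, 399 and 438 bp. The sign of the difference thus turned in all classes but the strongest, and in each class the intervals overlapped. S0 and S8 summits of the same region were 66 bp apart at the median in gap regions and 65 bp in kept regions, so the S8 peak lay close to the S0 peak in both groups. Shares by chromosome differed by less than 1 point on each of the 5 chromosomes.

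Within the gene the position did differ. The S0 summit fell on a coding exon in 636 gap regions (46.1%, 43.5 to 48.8%) and 4333 kept regions (62.6%, 61.5 to 63.7%), a difference of −16.5 points (−19.3 to −13.6). Introns held 32.3% of gap and 24.2% of kept summits (8.07 points, 5.45 to 10.8), and untranslated exons 15.1% and 10.03% (5.06 points, 3.12 to 7.16). The coding share was lower in gap regions within each of the 4 classes of rank, with −7.16 points in the weakest and −34.3 points in the strongest, where 40 of the 49 gap regions were repeated. The genes of gap regions had a median length of 2678 bp against 2423 bp for kept regions and a median of 6 against 5 exons, and 9.93% against 14.7% had a single exon. Against the mirror regions lacking S4 alone, gap regions with an S4 peak had 45.1% against 55.2% coding summits (−10.2 points, −15.5 to −4.76). Their S0 summit lay in a gene body in 93.2% against 97.2% (−4.03 points, −6.22 to −1.70). It was distal in 5.41% against 1.12% (4.29 points, 2.43 to 6.13), and 33 of the 46 distal ones were repeated. The other traits of position within the gene and of gene structure did not separate gap regions with an S4 peak from this mirror. The interval included 0 for introns (4.06 points, −0.933 to 8.92), untranslated exons (1.83 points, −1.98 to 5.45) and single-exon genes (−1.08 points, −4.44 to 2.04), and median gene length was 2680 against 2631 bp, with 6 exons in both.

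Gap regions were richer in A and T than kept regions, as were regions of several other patterns that lacked a peak. The median GC content at the S0 summit was 39.8% in gap regions (39.3 to 40.3%) and 43.8% in kept regions (43.3 to 43.8%). The difference held within each of the 4 classes of rank, at 39.8, 40.3, 40.3 and 39.3% in gap regions against 41.3, 42.3, 42.8 and 47.3% in kept regions. In the strongest class, where it was largest, 40 of the 49 gap regions lay on repeated sequence, against 26 of 2026 kept regions. The difference was smaller within a class of summit, with 44.8% against 47.3% on coding exons, 35.8% against 36.8% in introns and 38.8% against 39.3% on untranslated exons. On untranslated exons the intervals overlapped. Of the regions with a GC content under 35%, 26.1% lacked the S2 peak and 17.97% the S4 peak, while at 55% and over the shares were 7.22% and 5.88%. The median of the lower percentile was 32.6 in the first of these classes and 73.2 in the last, so GC content and rank moved together. The part of rank in the difference was not tested beyond these classes. At the S0 summit, gap regions with an S4 peak had a median of 39.8% (39.3 to 40.3%) against 40.8% (40.3 to 41.8%) for the mirror regions lacking S4 alone, and these intervals touch. Regions with a peak at 1 stage had similar medians at the summit of that peak, with 39.8% for S0 alone, 40.3% for S2 alone, 39.3% for S4 alone and 40.3% for S8 alone. Those lacking S8 alone had 41.3% at the S4 summit and those with all 4 peaks 44.3% at the S8 summit.

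**Figure D3:**
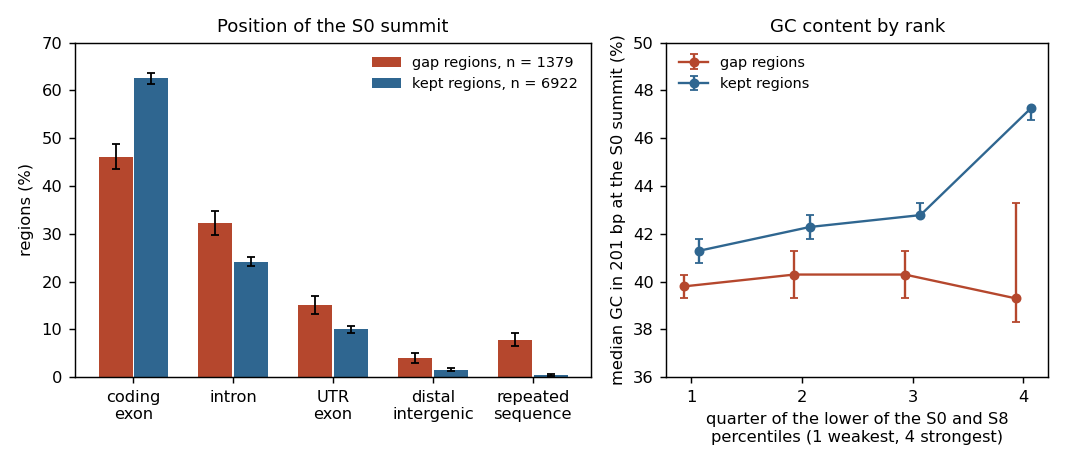
Left, share of gap and kept regions (in percent, bars from 0, with 95% Wilson intervals) whose S0 summit lies in a coding exon, intron, untranslated exon or distal sequence, or on repeated sequence. Right, median GC content around the S0 summit by 4 classes of rank, weakest on the left, with 95% order-statistic intervals. Gap regions stay between 39.3 and 40.3% and kept regions between 41.3 and 47.3%. In the strongest class 40 of the 49 gap regions lie on repeated sequence.

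The strongest gap regions with an S4 peak, leaving out repeated summits, were named by the lowest of their 3 percentiles. BZIP28, a membrane-bound bZIP factor that is released when proteins misfold in the endoplasmic reticulum, stood at the 86.9, 89.6 and 74.3 percentiles at S0, S4 and S8. Its fold enrichment was 4.27, 3.74 and 3.32, and the nearest S2 peak was 3347 bp away. The PHD finger gene AT3G17460 stood at 74.1, 75.8 and 69.2. Both were in the upper part of each of the 3 lists in which they had a peak. SRR1, needed for phytochrome B signalling and normal clock function, stood at 76.8, 64.1 and 68.7 percentiles. SAP130b, a subunit of the splicing factor SF3b whose near copy SAP130a was a repeated gap region, stood at 61.7, 86.3 and 93.8. E1 ALPHA, a subunit of mitochondrial pyruvate dehydrogenase, stood at 61.5, 66.1 and 74.1. These genes work in unrelated processes. The other members of the 12 were RPL18AA, AT2G17442, AT4G14740, AT1G22870, PIL6, and the distal regions nearest to AT4G06744 and AT4G06688. The last 2 lie just past the end of the chromosome 4 run and inside it, and their nearest TSS is 60683 and 57858 bp away. The summit given to PIL6, a phytochrome-interacting factor, lies in the body of its neighbour AT3G59070.

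The 8 strongest with S0 and S8 peaks only were named in the same way. AT1G72950, a disease resistance protein of the TIR-NBS class, stood at the 76.8 percentile at S0 and the 77.8 at S8, with a fold enrichment of 4.44 and 3.87, and its nearest S2 peak was 16679 bp away. HAI1, a protein phosphatase 2C that dampens abscisic acid signalling, stood at 78.6 and 65.2. OPT4, an oligopeptide transporter, stood at 59.6 and 89.6, the highest S8 percentile of the 8. The remaining ones were AT2G32040, AT1G15165, AT1G69840, AtIPCS1 and AT3G44630. Their S0 percentiles ranged over the 8 between 56.8 and 83.5 and their S8 percentiles between 52.1 and 89.6.

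Among 29 lists of genes, flowering time stood farthest above the share of 16.6% over all regions. Of 14 regions with S0 and S8 peaks on its genes, 7 were gaps (50%, 26.8 to 73.2%), and none of the 7 had an S4 peak. With the kept region of TEM1, 8 of the 14 lacked the S4 peak (57.1%), against 12.8% of all regions, so the list stood out at S4 as well as at S2. The 7 were SPL3, SPL4, SPL5, SPL9, GIGANTEA (GI), FCA and AGL31. The kept regions were those of FLD, FRI, FY, MAF1, TEM1, TOE2 and another region of AGL31. The median of the lower percentile on this list was 30.4, in class 4 of 10, where 19.3% of all regions lacked the S2 peak. Here and where it is given for lists below, the share in the class of the median is for reference only. It is not the share expected of a list, whose regions spread over several classes. SPL9 stood at the 58.1 percentile at S0 and at 29.9 at S8, with a fold enrichment of 3.06 and 2.59. SPL5 stood at 66.2 and 27.2, and SPL4 at 30.9 and 39.96. SPL3 had the weakest S0 peak of these, at 4.86, and stood at 19.0 at S8. Each SPL peak lay on the gene itself, on coding sequence in SPL5 and SPL9 and on an untranslated exon in SPL3 and SPL4. GI, which links the circadian clock to the induction of flowering, stood at 40.6 and 2.57. FCA, an RNA-binding protein that promotes flowering through RNA processing at FLC, stood at 52.8 and 13.3. AGL31, a relative of FLC that delays flowering, had a distal gap region 1761 bp upstream of its TSS, at 16.02 and 10.6, while its kept region stood at 71.1 and 60.6. Every S8 peak of the 7 stood at or under the 39.96 percentile.

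The SPL family as a whole was then taken by product name, a list made after these values were seen. Its 17 genes gave 12 regions with S0 and S8 peaks, of which 6 were gaps and 6 were kept, beside 16.6% gaps over all regions. None of the 6 gaps had an S4 peak, beside 61.6% of all gap regions that had one. Of the 6, 4 were not on repeated sequence, and these were already counted in the flowering time list. The gaps were SPL3, SPL4, SPL5, SPL9, SPL13A and SPL13B, all of which are known targets of miR156. The kept regions were SPL1, SPL7, SPL8, SPL12 and SPL14, none of which is, and AT1G76580. Other members of the family, miR156 targets among them, had no region with S0 and S8 peaks. SPL10 and SPL11 had an S4 peak only, AT1G69170 an S0 peak only, and SPL2 and SPL15 no peak at any stage. Rank separated the same groups, with the lower of the S0 and S8 percentiles between 2.57 and 30.9 in the gaps and between 61.5 and 97.1 in the kept regions, and its part in the split was not tested. SPL13A stood at 32.1 at S0 and 2.57 at S8, and SPL13B at 40.6 and 16.9, both on a sequence that has 2 exact copies. SPL12 kept an S2 peak at the 4.37 percentile, while its S0 peak stood at 78.9 and its S8 peak at 61.5.

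**Figure D4:**
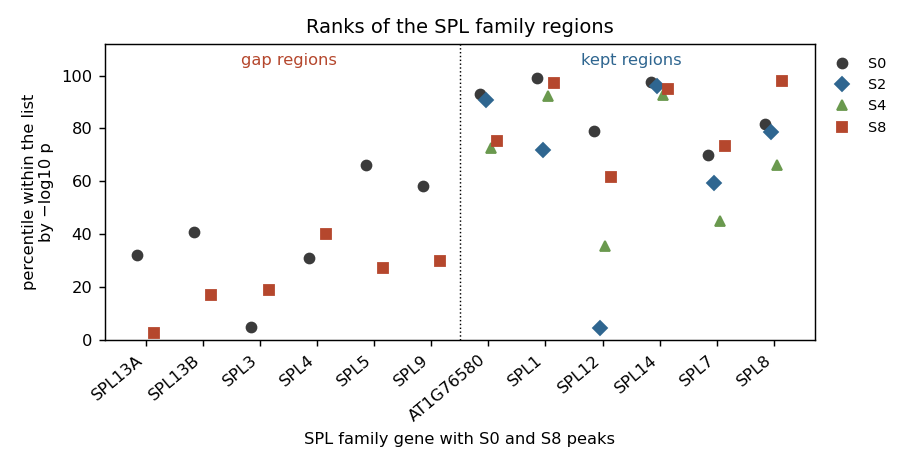
Percentile within the list by −log10 p of the strongest peak at S0, S2, S4 and S8 for the 12 SPL family regions with S0 and S8 peaks, 6 gaps on the left and 6 kept on the right. No gap has an S2 or S4 peak, and the lower of the S0 and S8 percentiles is at most 30.9 in the gaps and at least 61.5 in the kept regions.

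The list of genes that build the meristem and pattern its organs had no gap among its 16 regions with S0 and S8 peaks. This count allows a share of gaps of up to 18.8%, so the list did not stand apart from the 16.6% over all regions. All 16 regions kept the S4 peak as well. They include CLV1, AS1, MP, ANT, ETT, PHB and REV. The median of their lower percentile was 50.8, in class 6 of 10, where 12.4% of all regions were gaps, and PHB, an organ polarity factor, kept its S2 peak with a lower percentile of 23.1. Floral organ identity had 1 gap among 6 regions, a weak one given to HUA1 that lies in the body of the neighbouring AT3G12685, while HUA1 has a kept region at the 81.6 percentile of S0. Stamen and ovule genes had 1 gap among 8 regions, MYB65, a regulator of anther development, at 32.1 at S0, 16.2 at S4 and 2.57 at S8. Its close relative MYB33 was kept.

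Disease resistance genes also stood above the share over all regions, with 8 gaps among 19 regions (42.1%, 23.1 to 63.7%). Of the 8, 5 had an S4 peak and 3 lay on repeated sequence, among them RPP1, a receptor of downy mildew effectors. Without repeated sequence the list had 5 gaps among 16 regions (31.3%, 14.2 to 55.6%), an interval that includes the 15.6% over all regions not on repeated sequence. AT1G61310 stood at the 78.9, 54.8 and 54.2 percentiles at S0, S4 and S8 and AT1G61190 at 71.0, 36.3 and 56.7, and 28.2 and 48.8% of the 32-mers at their summits were repeated, under the limit of 50%. On chromosome 3, 4 of the 8 lay in a row of 5 neighbouring gap regions at chr3:16095715-16217666, those of RPP1 and AT3G44670 and both regions of AT3G44630. RPS2, RRS1 and SNC1 were kept. The median lower percentile of the list was 49.3, in class 6 of 10, where 12.4% of all regions were gaps. The part of rank in the share of gaps on this list was not tested.

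The circadian clock had 3 gaps among 9 regions (33.3%, 12.1 to 64.6%). ZTL, an F-box blue light receptor, stood at 66.4, 67.4 and 35.9 at S0, S4 and S8, and PRR3, a pseudo-response regulator, at 7.30, 43.3 and 47.2. GI was the third, while TOC1, PRR5, ELF3 and FKF1 were kept. Hormone lists did not stand apart by their intervals. Ethylene had 4 gaps among 18 regions, with EIN3, the transcription factor at the end of the ethylene pathway, at 20.2, 26.4 and 64.0, and EIL3 at 24.4, 1.05 and 29.3. Cytokinin had 3 among 15, with the receptor HK2 at 59.6, 48.6 and 74.6. Abscisic acid and dehydration had 6 among 20, with RD2 at 81.2, 45.1 and 39.8. Auxin response had 2 among 23, ARF8 and ARF1, and jasmonate had 3 among 13, MYC4, TIFY7 and LOX6. In each of these lists the interval included 16.6%.

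At the other end, leucine-rich repeat receptor kinases had 3 gaps among 67 regions (4.48%, 1.53 to 12.4%), or 5 among 73 (6.85%, 2.96 to 15.1%) where summits were given to the gene body that holds them, and ribosomal proteins 28 among 238 (11.8%, 8.27 to 16.5%). The medians of the lower percentile were 58.6 and 59.6, both in class 7 of 10, where 5.42% of all regions were gaps. Of the 28 ribosomal gaps, 7 were repeated. RPL18AA stood at 77.2, 73.8 and 60.2 at S0, S4 and S8, RPL21C at 85.3, 66.3 and 60.2, and AT3G06180 at 83.0, 59.9 and 59.9. Large lists stood near the background, with 27 of 155 regions of F-box and ubiquitin ligase genes (17.4%), 27 of 162 of RNA binding and splicing genes (16.7%) and 33 of 209 of transporters (15.8%). The lists were not adjusted for their number, and 4 of 29 had an interval that left out the share over all regions, the same 4 under the gene body assignment and 3 without repeated sequence.

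**Figure D5:**
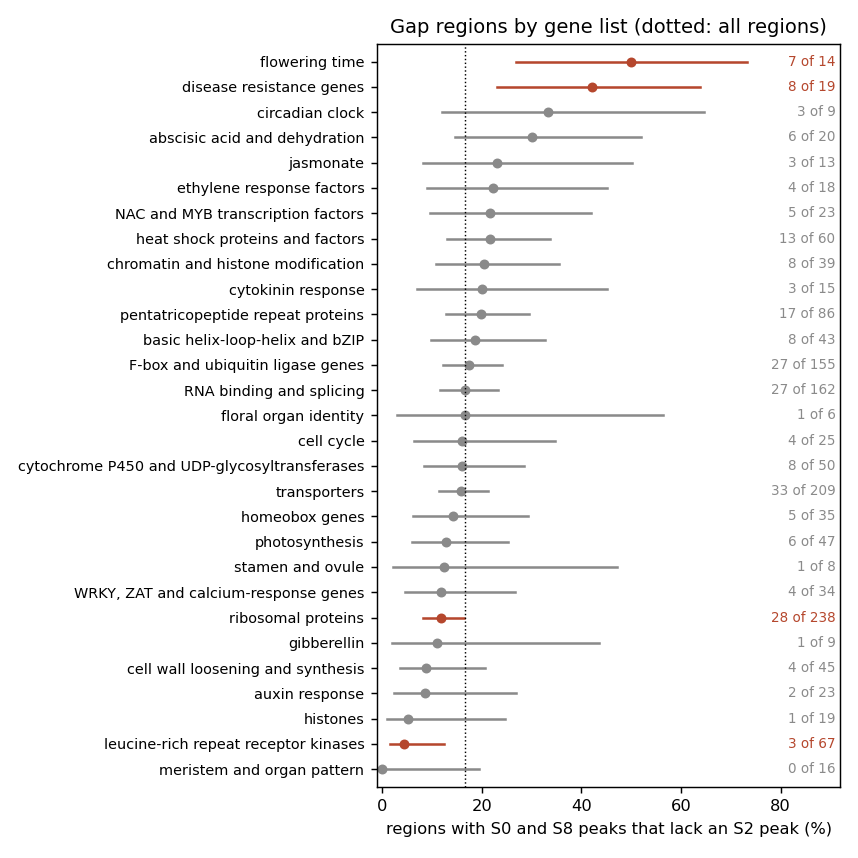
Share of regions with S0 and S8 peaks that lack an S2 peak, in percent, for 29 gene lists, with 95% Wilson intervals and the number of gaps among regions; the dotted line is the 16.6% over all regions. Flowering time (50%) and disease resistance (42.1%) lie above the line, ribosomal proteins (11.8%) and leucine-rich repeat receptor kinases (4.48%) below it, and the other intervals include it.

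Promoters differed between the groups in 2 of 14 motifs, by intervals that were not adjusted for the number of motifs. Windows from 250 bp before to 50 bp after the TSS were searched on both strands, with motifs counted separately where they overlapped, in 1347 genes of gap regions and 6780 genes with kept regions only. The heat shock element GAANNTTC was found in 8.83% of the first and 11.7% of the second (−2.83 points, −4.44 to −1.04), against 11.6% of all 27444 protein-coding genes. The LFY-type motif CCANTG was found in 23.2% and 26.6% (−3.40 points, −5.82 to −0.85), against 25.7% of all, but its interval included 0 in the 250 bp before the TSS alone. For the other 12 the interval of the difference included 0. The CArG box, the binding motif of MADS factors, was found in 2.75% and 3.42%, against 3.05% of all, and the evening element AAATATCT in 5.20% and 5.96%, against 5.65%. The G-box CACGTG was found in 9.95% and 8.78%, against 7.68% of all. The others were the W-box core TTGAC, the TCP site GGNCCC, the telo-box AAACCCTA, the I-box GATAAG, the auxin response element TGTCTC, the GAGA repeat GAGAGAGA, the DRE core CCGAC, site II TGGGC and the TATA box TATAAA, found in between 6.22% and 52.1% of all genes. The median GC content of the window was 32.3% in both groups.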

How the data were processed

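H3K27ac ChIP-seq of 4 stages was used as deposited, 1 narrowPeak list per stage from 2 replicates (how their reads or peaks were joined is not given in the sources used here). Per the labels and the study's methods, the authors aligned reads to TAIR10 with Bowtie 1.1.2 (2 seed mismatches, reads with up to 10 places kept at 1), removed duplicates with Picard 2.60, called peaks with MACS2 2.1.0 at a p of 0.01 against the combined inputs, and kept those with an irreproducible discovery rate of at most 0.1. No deposited peak had a −log10 q under 10. The deposited files give for each peak the fold enrichment over input at the summit, a ratio, and its −log10 p and −log10 q. The score column was not used. The library depth is not given in the sources used here, so no interval could be set on a peak's own value.

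Regions were built by joining peaks that overlap by at least 1 bp. The strongest S0 peak by −log10 p gave the summit, which was placed in a gene body, a promoter (1000 bp upstream of the TSS) or distal sequence of the protein-coding genes of RefSeq TAIR10.1, and the closest TSS named the region. Repeats were counted as 32-mers found more than once in the genome in the 100 bp on each side of the summit, with a limit of 50%. Shares have 95% Wilson intervals, differences Newcombe intervals and medians order-statistic intervals, all over regions, and beside a count of 0 the share that 3 counts would give is printed. The members, the 29 gene lists (with 10 loci taken off that did not belong), the 14 motifs and the comparisons were chosen with earlier results of these data known. Comparisons within classes of rank or summit, with the S4 gap, with and without repeats (gene lists included), and of the SPL family were added after these values were seen. Gap regions outside repeated sequence were named by a fixed rule: the 12 with and the 8 without an S4 peak whose lowest percentile was highest, all those of the developmental lists, up to 3 of each other list, and the 3 on each side of the edge of the definition. Repeated regions, the SPL family and kept genes were named after their values were seen. Python 3.11.15, NumPy 2.4.6, pandas 2.3.3, SciPy 1.17.1 and matplotlib 3.10.9 were used, and the code was tested on simulated data.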

Additional observations from a re-analysis of the deposited data

How the results depend on the processing

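Of 85 alternative values, 75 kept the direction and side of the threshold (or, for counts, stayed within 1.5 times), and none reversed. The TSS distance within classes of rank is not among the 85, and there the sign turned in all classes but the strongest. The number of gap regions was between 1197 and 1442 under 8 alternatives, but 816 with the upper 50% of each list by −log10 p, 780 with every list limited to as many peaks as the shortest, and 143 with the full S2 list against the upper 50% of the S0 and S8 lists. The difference in median TSS distance was −18.5 bp under the second and −6.5 bp under the third of these, with overlapping intervals. The gene body difference was −0.366 points without repeated sequence, and otherwise between −20.2 (the third of these) and −1.31, and the GC difference −0.498 points among untranslated exon summits, an alternative chosen after seeing the data. An S2 peak lay within 500 bp of 7.11% and within 2 kb of 26.6%. In the 250 bases before the TSS alone, 1 motif differed instead of 2. Of the gene lists, 4 left out the share over all regions under the gene body assignment and 3 without repeated sequence, disease resistance being lost, an alternative also chosen after seeing the data. The S4 difference ranged over its 16 alternatives between −34.0 and −3.93 points and that of repeated sequence over 3 between 7.27 and 10.3 points. No paired analysis was possible because there is 1 list per stage for both replicates, and for the same reason no replicate could be left out. Since depth is unknown, an absent peak may be one just below the limit of calling.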
